A study of Mus musculus with 18 samples.

Results

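The renin-angiotensin members examined here were Agtr2, the type 2 receptor for the peptide hormone angiotensin II, its type 1 counterpart Agtr1a, the precursor Agt and the converting enzyme Ace. They are 4 of 49585 gene identifiers in the deposited table and were followed by symbol through all 18 lesions. Agtr2 was chosen by its counts in NK and Ctrl lesions, the other 3 by pathway, so the values of Agtr2 by group are a description with no test. All 4 had at least 1 count, and 3 of the 4, all but Agt, passed the filter on low counts, Agtr2 through its counts in NK lesions alone.

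The study captured lung metastases with and without transferred natural killer (NK) cells. Lesions labelled NK came from 2 mice given 60000 mouse NK cells, activated in culture, by vein on day 11 (mouse NK1 with 3 lesions and mouse NK2 with 4). Lesions labelled Ctrl came from 3 mice given saline on that day (KO1 with 5 lesions, KO2 with 4 and KO3 with 2). All hosts were of 1 strain, given as lacking Rag2 and Il2rg in the labels and with Rag1 in place of Rag2 in the growth protocol. Such hosts have no T, B or NK cells of their own but keep myeloid cells, vessels and connective tissue. The tumour in every host was the AT3 line, a single mouse mammary carcinoma line from an MMTV-PyMT tumour, carrying fluorescent labels and spreading by itself from the mammary fat pad. A lesion is named by mouse and number, so NK1-3 is the lesion 3 of mouse NK1.

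Angiotensinogen is cut by renin to angiotensin I, and angiotensin-converting enzyme, which sits on the surface of endothelium and is abundant in lung capillaries, trims that to angiotensin II. The type 1 receptor carries the vasoconstrictor, growth and fibrotic actions of the hormone through Gq proteins. The type 2 receptor is high in fetal mesenchyme, falls after birth and is known to oppose many type 1 actions. Circulating angiotensinogen comes mainly from liver and renin from kidney, so a lung sample can hold receptors and converting enzyme without transcripts for the precursor or renin.

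Counts summed to between 2964242 and 11798897 per NK lesion, against 5690467 to 9816244 per Ctrl lesion. The mitochondrial transcript mt-Rnr2 took 13.7% to 65.3% of the counts in NK lesions and 12.1% to 68.7% in Ctrl lesions. It exceeded 40% in 6 lesions, which were all 3 of NK1 with KO1-2, KO1-5 and KO3-2. Epithelial markers of the carcinoma were present in every lesion, and their 8 members summed to 83.2 to 932 CPM (counts scaled by the TMM-adjusted library size) in NK lesions and 67.9 to 340 CPM in Ctrl lesions. Normal lung epithelium makes the same markers. In mouse NK1, lesion NK1-1 stood apart with adipocyte markers at 1709 CPM and cardiac markers at 255 CPM, against at most 43.6 and 27.1 CPM in Ctrl lesions. NK1-3 did so with airway markers at 25325 CPM and the epithelial markers at 932 CPM, against at most 16090 and 340 CPM in Ctrl lesions. Lung tissue was captured as well, since 8 alveolar type II markers summed to 205 to 2731 CPM in NK lesions and 666 to 3507 CPM in Ctrl lesions. The 10 NK cell markers summed to 2.16 to 75.7 CPM in NK lesions and 0.915 to 9.91 CPM in Ctrl lesions, so some NK lesions lay within the Ctrl range. In bulk samples such as these, fewer cells of a type and less RNA per cell cannot be told apart.

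The start-site sequences of Agtr2, Agt and Ace are shown because these members differ in how many lesions gave a count. Each runs from 250 bases before to 50 bases after the RefSeq start on GRCm38.p6, 5′ to 3′ on the gene's own strand, with the TATA box core (TATAA) in capitals. Agtr2 lies at chrX:21484374-21484673 on the plus strand, Agt at chr8:124569657-124569956 on the minus strand and the upstream start of Ace at chr11:105967698-105967997 on the plus strand.
Agtr2: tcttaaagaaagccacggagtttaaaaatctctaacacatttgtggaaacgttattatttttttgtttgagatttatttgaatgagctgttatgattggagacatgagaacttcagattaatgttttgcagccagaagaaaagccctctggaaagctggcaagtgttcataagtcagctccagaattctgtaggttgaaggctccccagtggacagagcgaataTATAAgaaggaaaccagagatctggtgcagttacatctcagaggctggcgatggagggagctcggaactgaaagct
Agt: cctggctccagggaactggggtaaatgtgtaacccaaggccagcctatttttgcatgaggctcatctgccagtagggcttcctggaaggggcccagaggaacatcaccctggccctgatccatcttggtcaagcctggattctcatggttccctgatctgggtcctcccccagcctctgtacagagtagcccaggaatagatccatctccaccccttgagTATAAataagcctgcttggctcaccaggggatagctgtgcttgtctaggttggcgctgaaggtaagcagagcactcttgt
Ace: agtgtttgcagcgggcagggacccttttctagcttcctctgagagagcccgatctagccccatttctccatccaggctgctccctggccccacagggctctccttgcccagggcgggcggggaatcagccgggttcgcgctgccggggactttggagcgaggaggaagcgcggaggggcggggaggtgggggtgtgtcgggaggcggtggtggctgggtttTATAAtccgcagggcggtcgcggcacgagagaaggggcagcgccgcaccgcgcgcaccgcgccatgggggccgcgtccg
Read on its own strand, TATAA began at position -26 in Agtr2, -30 in Agt and -29 in Ace, counted from the RefSeq start. The GENCODE annotation starts Agtr2 at 21484544, inside this window and upstream of its TATAA. For Agtr2 the position therefore depends on the start used. Over all 32851 promoters of the same table, 3.51% held it on their own strand between 40 and 21 bases before the start, and 24.9% held it anywhere on either strand. The internal start of Ace, known for its use in the testis, had no TATAA in its window. The STAT motif TTCNNNGAA, searched on both strands and found in 8.3% of all promoters, was present in the Agt window only, at -172. The AP-1 motif TGANTCA, found in 7.81%, was in none of these windows. By the RefSeq starts, TATAA was therefore present in this place in a gene with counts in NK lesions only (Agtr2). It was also present in a gene with a single count (Agt) and a gene with counts in every lesion (Ace). A match of letters says nothing of use.

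Agtr2 was detected in NK lesions and had no count in any Ctrl lesion. The gene occupies chromosome X, 21484544 to 21489164 (GRCm38, plus strand), with 3326 exonic bases of which a single exon is coding. Its counts were 15, 10 and 0 in lesions 1 to 3 of NK1 and 13, 25, 39 and 2 in lesions 1 to 4 of NK2, against 0 in all 11 Ctrl lesions. In CPM these were 2.37, 4.06 and 0 in NK1 and 0.947, 1.74, 2.83 and 0.116 in NK2. Both NK mice therefore contributed, 6 of 7 NK lesions had a count, and no single lesion held more than 37.5% of the 104 counts. With the lesions of a mouse summed, the Agtr2 level came to 2.38 CPM for NK1 and to 1.41 CPM for NK2, a mean of 1.89 ± 0.686 CPM (SD, n = 2 mice), against 0 in each of the 3 Ctrl mice.

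**Figure D1:**
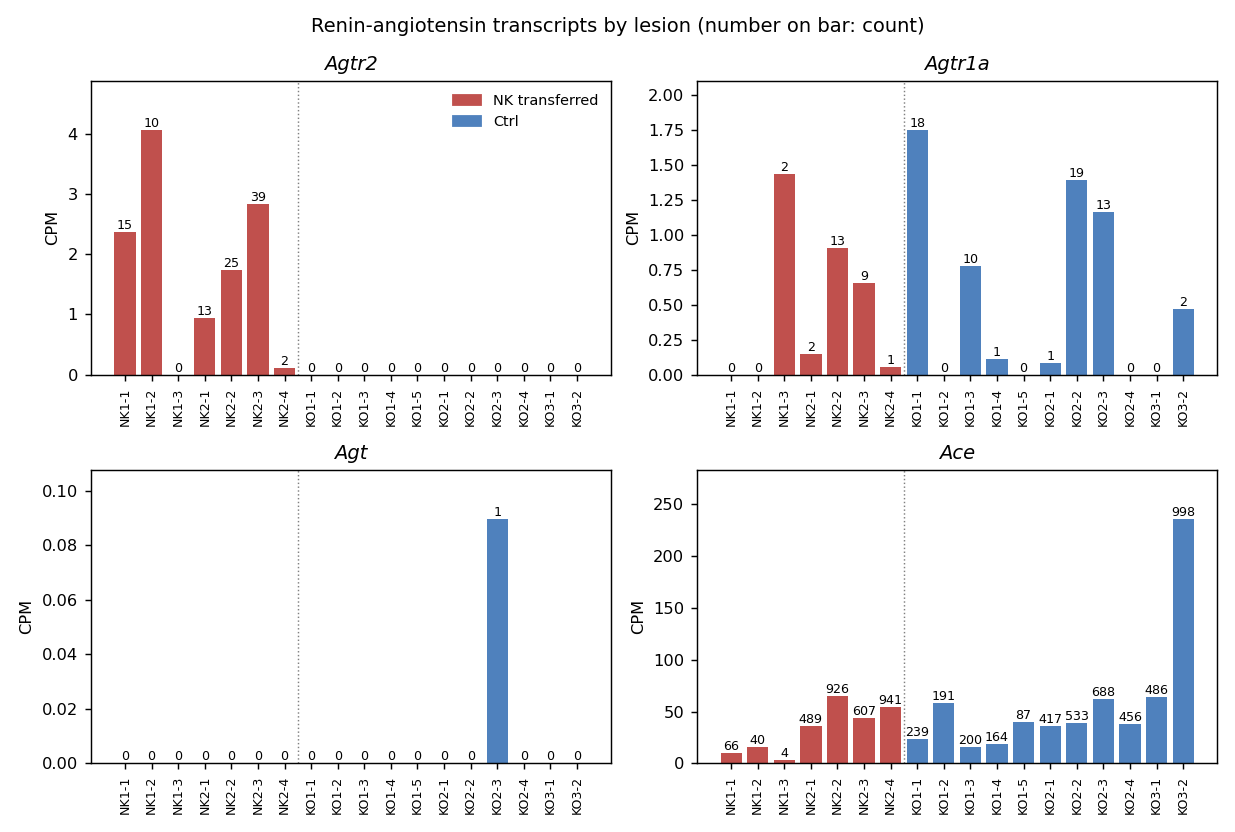
Level of each member in every lesion, NK lesions in red on the left and Ctrl lesions in blue on the right of the dotted line. The vertical axis is CPM on a linear scale that differs between panels, and the number on each bar is the rounded count. Agtr2 bars stand in 6 of 7 NK lesions and in no Ctrl lesion, Agt has 1 count in all, and Ace is present in all 18 lesions with its highest bar (236 CPM) in KO3-2.

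The depth of the Ctrl lesions bounds what their zeros mean. A count of 0 allows up to 3 counts, which came to 0.220 to 1.37 CPM in single Ctrl lesions and 0.0308 CPM over the Ctrl group. The NK lesion without Agtr2, NK1-3, was the shallowest, and its 0 allows up to 2.16 CPM, a level that 3 of the 6 lesions with Agtr2 exceeded. Against the floor of 3 counts over the Ctrl group, Agtr2 was at least 48.8-fold higher in NK lesions. That bound was 24.6 without mouse KO2, 30.2 without KO1 and 79.8 without NK2, since fewer libraries change the floor or the numerator. It was 39.2 with only the lesions at or under 40% mt-Rnr2, which leave mouse NK2 alone in the NK group, and 38.1 to 63.7 when any 1 lesion was left out. No 50-base stretch of the Agtr2 transcripts occurred in another annotated gene.

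Among all genes, 1725 had counts in NK lesions only and 2769 in Ctrl lesions only, and most of these genes had few counts. At 100 counts or more, 9 genes were seen in NK lesions only and 7 in Ctrl lesions only. Of the 9, Agtr2 alone had counts in at least 6 of the 7 NK lesions. The others, named here after their values were seen, were carried by few lesions: Cfd, Tmem45b, Adipoq, 2010003K11Rik and Gp2 had all their counts in 1 lesion, Reg3g had 99.9% in 1, Mcpt4 was in 2 lesions and Cma1 in 5. Both cut-offs, 100 counts and 6 lesions, lie at or just under the values of Agtr2 itself (104 counts in 6 NK lesions). That Agtr2 passed them is therefore no finding. The spread over lesions of the 7 genes seen in Ctrl lesions only was not examined. This spread over lesions is part of the contrast that chose Agtr2 and is given as a description.

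The genes whose log2 CPM (prior count 2) followed Agtr2 most closely over the 18 lesions were Shc2 (Pearson r = 0.88), Slitrk6 (0.84), Ncr1 (0.82), Lum (0.81) and Gm26902 (0.81). Shc2 encodes an adaptor of receptor tyrosine kinases, Slitrk6 a neuronal transmembrane protein, Ncr1 the NK cell receptor NKp46 and Lum the collagen-binding proteoglycan lumican. Shc2 had 150 counts in 7 NK lesions and 21 counts in 5 Ctrl lesions, and Gm26902 had 51 counts in 6 NK lesions and 2 counts in 2 Ctrl lesions. Ncr1 had 175 counts in 6 NK lesions and 5 counts in 2 Ctrl lesions. Within the 7 NK lesions alone, r was 0.89 for Slitrk6, 0.87 for Lum, 0.82 for Shc2, 0.75 for Gm26902 and 0.50 for Ncr1. Agtr2 was chosen by its counts in NK and Ctrl lesions, so r over 18 lesions favours genes high in NK and low in Ctrl lesions. Ncr1 and Gm26902 also passed the filter on low counts through their NK counts alone. Lesions of a mouse share a host, and NK1-3 is shallow and low for several of these genes, so these coefficients are descriptions.

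The fibroblast marker score was higher in the lesions with Agtr2. The list score, the mean log2 CPM of its 12 members, was 5.01 to 5.59 in the 6 lesions with Agtr2 and 3.28 in NK1-3, against 3.60 to 4.91 in the Ctrl lesions, so lesions with Agtr2 did not overlap those without it. The summed level of the list was 554 to 8360 CPM in NK lesions and 255 to 949 CPM in Ctrl lesions, none of its members was at 0 in either group, and the score followed Agtr2 with r = 0.69 over 18 lesions. Lum, the collagen gene Col3a1 and dermatopontin (Dpt) carried this over the 18 lesions. Without those 3, left out after their values were seen, the score was 3.71 to 4.54 in lesions with Agtr2. It was 2.49 in NK1-3 and 3.18 to 4.54 in Ctrl lesions, and r was 0.18. Within the 7 NK lesions alone, r was 0.73 for the full list and 0.51 without those 3. There it was -0.70 for the epithelial markers of the carcinoma and -0.64 for alveolar type I markers. NK1-3 had the lowest fibroblast score of the 7, with and without those 3 genes, and the highest epithelial score. Its Agtr2 count of 0, in the shallowest lesion, allows up to 2.16 CPM. How far these coefficients within NK lesions rest on NK1-3 was not tested. Any r over 18 lesions includes the Ctrl zeros that chose Agtr2. Lum averaged 279 CPM over NK mice and 22.1 CPM over Ctrl mice. The part of fibroblasts in the Agtr2 difference was not tested.

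NK cell markers moved with Agtr2 less tightly within the NK lesions. Their score was -0.74 to 2.66 in the 6 lesions with Agtr2 and -1.58 in NK1-3, against -2.01 to -0.49 in Ctrl lesions. Ncr1 had 0.139, 0 and 0 CPM in KO1, KO2 and KO3. Xcl1, named after its values were seen, had 0.195, 0.044 and 0 CPM. Both passed the filter on low counts through their NK counts alone, so they had to be higher in NK mice and lift the score there. The correlation of this score with Agtr2 was 0.75 over 18 lesions and 0.43 over the 7 NK lesions. NK1-3 had the lowest score of the 7 here too, and its part in that r was not tested. NK1-2, with the highest Agtr2 level (4.06 CPM), had the lowest NK score of the 6 and lay within the Ctrl range. Mast cell markers scored 1.51 to 4.28 in the 6 lesions, 0.82 in NK1-3 and 0.93 to 2.42 in Ctrl lesions, from the 3 of 8 markers that passed the filter. Of these Cma1 passed through its NK counts alone, so it had to be higher in NK mice and lifts the score where it was counted. Kit gave -0.17 ± 0.66 and Hdc -0.92 ± 0.56 (log2 fold change ± SE, neither past the test). Tpsb2, Tpsab1, Mcpt4 and Cma1, named after their values were seen, were at 0 in every Ctrl lesion. Of them only Cma1 passed the filter on low counts. Mcpt4 had counts in 2 NK lesions and Cma1 in 5. Among all genes, 1725 had counts in NK lesions only and 2769 in Ctrl lesions only. The zeros of these markers are therefore a description, and a difference in mast cells was not tested. Neutrophil markers scored 1.15 to 4.26 in the 6 lesions, 1.87 in NK1-3 and 3.34 to 8.02 in Ctrl lesions, the opposite direction. Whether any of these cells accounts for Agtr2 was not tested.

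**Figure D2:**
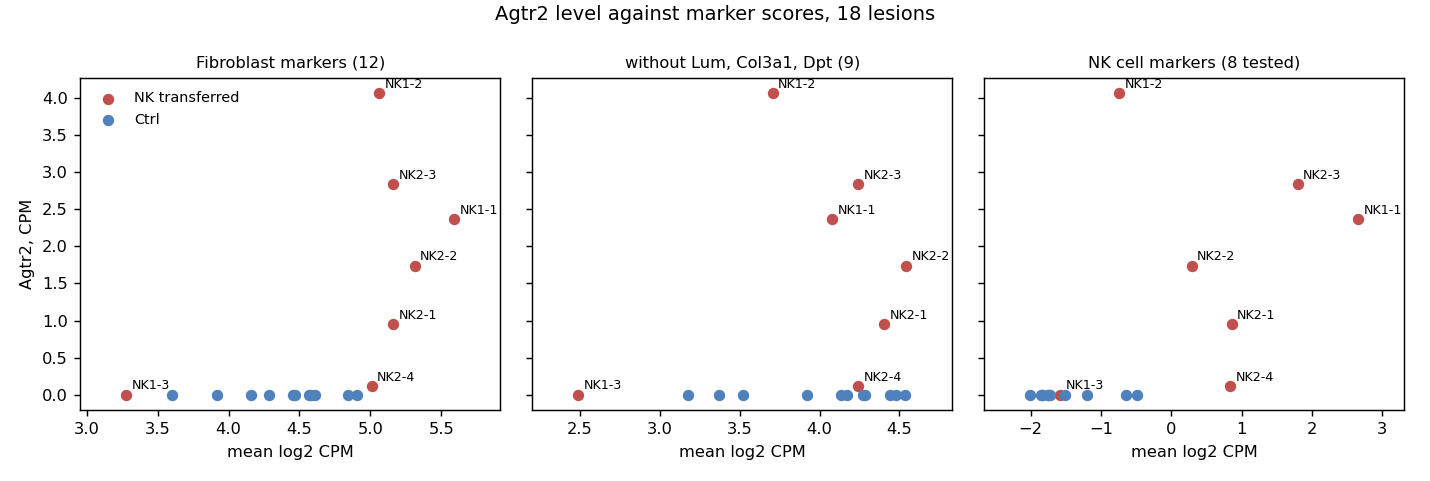
Agtr2 level in CPM (vertical axis) against the mean log2 CPM of 12 fibroblast markers, of the 9 left without Lum, Col3a1 and Dpt, and of 8 tested NK cell markers (horizontal axes); each point is 1 of 18 lesions, NK in red with names and Ctrl in blue. The 6 lesions with Agtr2 lie right of every Ctrl lesion for the full fibroblast list (5.01 and above, against 4.91 and below), but among them once the 3 genes are left out.

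Agtr1a, the type 1 receptor and the main pressor receptor in rodents, was low and uneven in both groups. Its r with Agtr2 was -0.14 over the 18 lesions and -0.36 over the 7 NK lesions, at counts too low to read a relation from. It lies on chromosome 13 (30336441 to 30382867, plus strand), with 2786 exonic bases and 1 coding exon. Its counts in NK lesions were 0, 0 and 2 in NK1 and 2, 13, 9 and 1 in NK2. In Ctrl lesions they were 18, 0, 10, 1 and 0 in KO1, 1, 19, 13 and 0 in KO2, and 0 and 2 in KO3. A count was thus seen in 5 of 7 NK lesions and 7 of 11 Ctrl lesions, and every mouse of either group had at least 1 lesion with a count. The lesion with the highest Agtr2 level, NK1-2, had no Agtr1a count.

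By mouse, Agtr1a stood at 0.190 CPM in NK1 and 0.446 CPM in NK2, against 0.807 CPM in KO1, 0.724 CPM in KO2 and 0.174 CPM in KO3. Both NK mice lay between the lowest Ctrl mouse, KO3, and the other Ctrl mice, and the lesions of neighbouring mice in this order overlapped throughout. It averaged 0.318 ± 0.181 CPM in NK mice (SD, n = 2) and 0.5685 ± 0.344 CPM in Ctrl mice (n = 3). The log2 fold change of -0.80 ± 1.22 (SE) did not pass the edgeR test over all genes (adjusted p = 0.9998). Of 16917 genes tested, 0% passed that threshold and 2.52% had an unadjusted p under 0.05, so no gene passed in this fit. Leaving out any 1 lesion or mouse kept the value negative, from -1.58 to -0.27. Per kilobase of exon, the median level of Agtr2 in NK lesions was 0.524 CPM, that of Agtr1a 0.0523 CPM in NK lesions and 0.0413 CPM in Ctrl lesions.

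The second mouse type 1 receptor, Agtr1b, had no count in any of the 18 lesions. Other genes, Agtr1b among them, shared 1.27% of the 50-base stretches of Agtr1a. The genes most like Agtr1a over the 18 lesions were Emp2 (r = 0.73), Ppp4r1 (0.71), Zfp940 (0.71), Zfp712 (0.71) and F830016B08Rik (0.70). Emp2, a membrane protein of alveolar type I cells, had 68.1 CPM in NK mice and 63.7 CPM in Ctrl mice on average, and was itself in the type I marker list. That list followed Agtr1a with r = 0.46, against 0.22 for endothelium and 0.06 for pericytes and vascular smooth muscle. By rank (Spearman) the order changed, with 0.37, 0.50 and 0.12. Within the 11 Ctrl lesions r was 0.45, 0.42 and 0.23. With so few counts per lesion these are weak relations and are given as values only.

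Agt, the precursor of all angiotensin peptides, was close to absent from the counts. The gene (chromosome 8, 124556534 to 124569706, minus strand, 1891 exonic bases) had 0 counts in the 7 NK lesions and 1 count in the 11 Ctrl lesions, in KO2-3, where it came to 0.0898 CPM. It fell below the filter on low counts, and without a filter it did not pass in edgeR (adjusted p = 0.966). Renin (Ren1) had 0 counts in all 18 lesions.

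Ace, in contrast, was present in every lesion of both groups and varied widely between the mice of each group. It lies on chromosome 11 (105967945 to 105989964, plus strand), with 5287 exonic bases. In NK lesions it had 10.4, 16.2 and 2.88 CPM in NK1 (66, 40 and 4 counts) and 35.6, 64.5, 44.1 and 54.7 CPM in NK2 (489, 926, 607 and 941 counts). In Ctrl lesions it had 23.3, 58.6, 15.5, 18.9 and 39.8 CPM in KO1, 35.7, 39.1, 61.8 and 38.0 CPM in KO2, and 64.1 and 236 CPM in KO3. The 3 lesions of NK1 were among the 4 lowest of all, while those of NK2 lay within the Ctrl range.

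By mouse, Ace stood at 10.5 CPM in NK1 and 52.9 CPM in NK2, against 24.5 CPM in KO1, 45.9 CPM in KO2 and 129 CPM in KO3. The NK mice thus took the lowest place and the next to highest. Neighbours in this order had overlapping lesions in each case. Ace averaged 31.7 ± 30.0 CPM in NK mice (SD, n = 2) and 66.5 ± 55.3 CPM in Ctrl mice (n = 3). The log2 fold change of -1.06 ± 0.86 (SE) did not pass in edgeR (adjusted p = 0.9998). It was -2.67 without NK2, -0.32 without NK1, -0.52 without lesion KO3-2 and -0.15 without mouse KO3. With the 6 lesions over 40% mt-Rnr2 left out, which leaves NK2 as the lone NK mouse, the sign turned to 0.25.

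**Figure D3:**
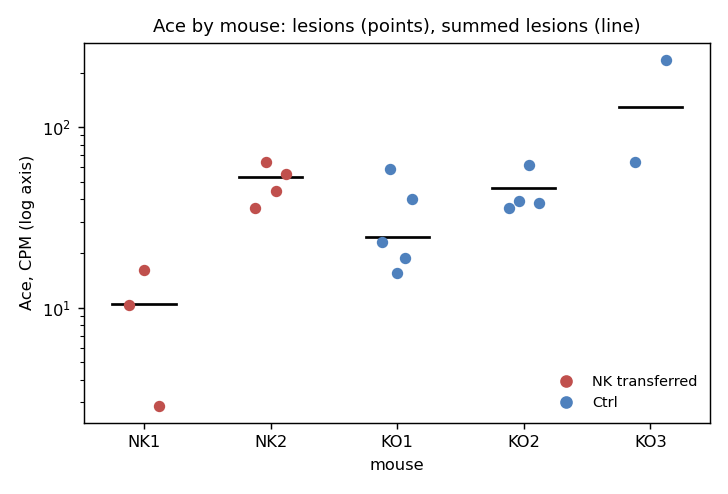
Ace level in CPM on a log axis by mouse, the 2 NK mice on the left in red and the 3 Ctrl mice on the right in blue; points are lesions and the black line is the mouse with its lesions summed. NK1 (10.5 CPM) and NK2 (52.9 CPM) lie on either side of KO1 (24.5 CPM) and KO2 (45.9 CPM), and KO3 (129 CPM) is highest.

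Ace was compared with the 10 endothelial markers because endothelium is its usual source in lung. Those markers summed to 28.4 and 39.8 CPM in NK1-1 and NK1-2, 345 CPM in NK1-3 and 235 to 246 CPM in NK2, against 137 to 396 CPM in Ctrl lesions. In NK1-3 the vascular receptor Kdr alone had 309.6 CPM, and Pecam1 and Tie1, looked up after the sum was seen, were at 0. Ace as a share of the endothelial sum was 14.5% in NK1 and 21.1% in NK2, against 11.1% in KO1, 14.9% in KO2 and 52.8% in KO3. The mean share was 17.8 ± 4.65% in NK mice and 26.3 ± 23.03% in Ctrl mice. The share of NK1 rests on NK1-3, at 0.835%, since NK1-1 had 36.7% and NK1-2 had 40.8%. Without NK1-3 it was 38.1%, above KO1 and KO2. Over the 18 lesions, log2 Ace followed the endothelial score with r = 0.68. Within the 7 NK lesions r was 0.88 and within the 11 Ctrl lesions 0.07. Over all lesions it was 0.08 without mouse NK1 and 0.67 to 0.78 without any other mouse, so it rests on NK1. The part of vessel content in the Ace values was not tested.

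The genes most like Ace over the 18 lesions were Rftn1 (r = 0.94), Ppp1r15a (0.92), Igf2bp3 (0.91), Rps6ka1 (0.91) and Nxpe4 (0.89), and none of them is in the endothelial list. Rftn1 encodes a lipid raft protein, Ppp1r15a the stress-induced phosphatase subunit GADD34, Igf2bp3 an RNA-binding protein and Rps6ka1 the kinase RSK1. Rftn1 averaged 8.29 CPM in NK mice and 19.7 CPM in Ctrl mice, and Rps6ka1 averaged 17.4 CPM in NK mice and 44.4 CPM in Ctrl mice. Neutrophil markers followed Ace with r = 0.62 and macrophage markers with r = 0.61, close to the value for endothelium over the same 18 lesions. Without any 1 mouse these were 0.45 to 0.76 and 0.46 to 0.74, where that for endothelium fell to 0.08. Within the 11 Ctrl lesions they were 0.65 and 0.48, against 0.07 for endothelium. Within the 7 NK lesions they were 0.52 and 0.79, against 0.88 for endothelium. Without lesion KO3-2, a choice made after seeing the data, they were 0.50 and 0.59, against 0.74. Alveolar type II markers gave 0.50 over 18 lesions, 0.47 to 0.51 without any 1 mouse and 0.48 within the Ctrl lesions. The order of these lists thus changed with the lesions used, and the source of Ace was not tested. The antisense gene Gm11651 overlaps Ace and shares 3.77% of its 50-base stretches, but had only 1 count over all lesions. Per kilobase of exon, the median Ace level was 6.74 CPM in NK lesions and 7.40 CPM in Ctrl lesions, above either receptor.

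Beyond the members, 51 genes in 4 lists cover the rest of the pathway, of which 48 had a count and 43 were tested. None passed the all-gene threshold in edgeR, as for all 16917 genes. Among the other precursors and peptidases, 10 of 13 tested genes had positive log2 fold changes, beside 8172 of all 16917. The list median was 0.44, against -0.03 over all genes. Both NK mice lay above every Ctrl mouse for 4 of the 13 (Atp6ap2, Lnpep, Mme and Cma1) and below for 0, where 7.94% of all tested genes lay above and 6.86% below. For Mme and Cma1 the unadjusted p was under 0.05, where 1.55% of all genes were higher at that level. Cma1 passed the filter on low counts through its NK counts alone, so it had to differ, and it adds nothing to the list's count.

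The 4 most abundant of these enzymes had small values. Ctsa (cathepsin A) gave -0.29 ± 0.44 (log2 fold change ± SE), Prep (prolyl endopeptidase) -0.18 ± 0.43, Prcp (prolyl carboxypeptidase, which trims angiotensin II) 0.27 ± 0.40 and Nln (neurolysin) -0.40 ± 0.45. None exceeded its own standard error. In each of the 4 lists the most abundant 4 genes were named by rule, and all others, with Agtr1b and Ren1 above, after their values were seen. Mme, which encodes neprilysin and converts angiotensin I to angiotensin 1-7, had 31.6 CPM in NK1 and 12.7 in NK2, against 8.02, 7.17 and 5.83 CPM in KO1, KO2 and KO3. Its log2 fold change of 1.65 ± 0.52 dropped to 0.64 without lesion NK1-1, which alone had 47.0 CPM and was the lesion with the adipocyte and cardiac markers; their part in it was not tested. Atp6ap2, the prorenin receptor and a part of the vacuolar proton pump, had 23.5 and 31.4 CPM in NK1 and NK2, against 14.7, 17.6 and 12.9 CPM in KO1, KO2 and KO3. Its log2 fold change was 0.87 ± 0.40, and 0.55 without NK1-1.

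Anpep, the aminopeptidase that degrades angiotensin III, gave 1.25 ± 0.58, but the groups overlapped, with 10.6 and 33.7 CPM in NK1 and NK2 and 12.6, 7.68 and 7.66 CPM in KO1, KO2 and KO3. It was 0.18 without mouse NK2. Lnpep, the angiotensin IV receptor and aminopeptidase IRAP, gave 0.79 ± 0.64 and 0.28 without NK1-1.

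Mast cell proteases that process angiotensin had most of their counts in 2 NK lesions, NK1-1 and NK1-2. Cma1, the mast cell chymase, which can form angiotensin II without converting enzyme, had 131, 160 and 0 counts in NK1 and 2, 2, 0 and 27 in NK2, against 0 in all Ctrl lesions. Against the floor of 3 counts over the Ctrl group it was at least 151-fold higher in NK lesions, and 17.1-fold without mouse NK1, 78.9-fold without lesion NK1-2, 98.8-fold without NK1-1, 93.4-fold without KO1, 76.1-fold without KO2 and 928-fold without NK2. Cpa3, the mast cell carboxypeptidase, had 23 and 107 counts in NK1-1 and NK1-2 and 2 in the other NK lesions, against 3 counts in 3 Ctrl lesions. Ctsg, the neutrophil cathepsin G, had 35 counts in 2 NK lesions and 15 in 2 Ctrl lesions. Cma1 and Cpa3 are themselves in the mast cell marker list, and only Cma1 enters its score.

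**Figure D4:**
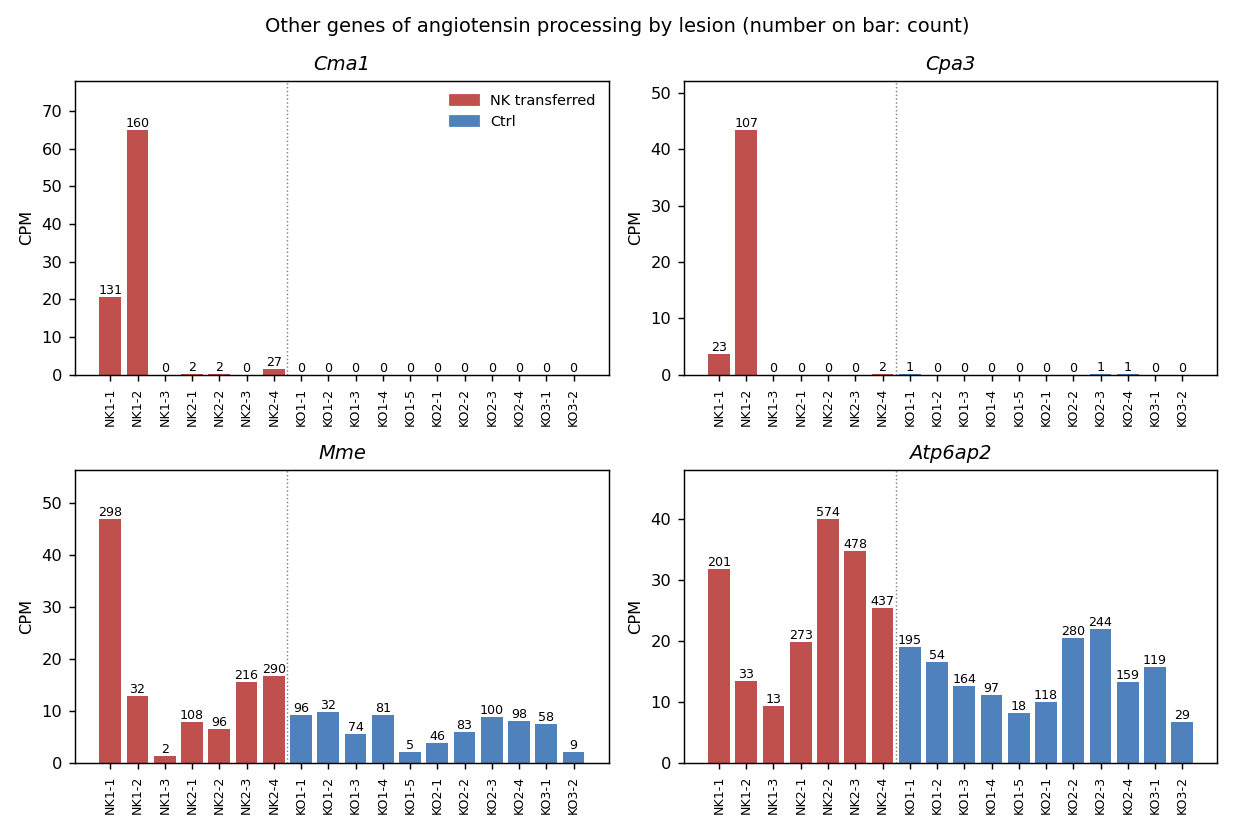
Level of Cma1, Cpa3, Mme and Atp6ap2 in every lesion, NK in red on the left and Ctrl in blue on the right; bars are CPM on a linear axis that differs between panels and the number is the count. Cma1 and Cpa3 are carried by NK1-1 and NK1-2, Mme is highest in NK1-1 (47.0 CPM), and Atp6ap2 is spread over both groups.

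Among receptor partners most values were negative. Of 10 tested genes that bind or signal from the angiotensin receptors, 2 had positive values and the median log2 fold change was -0.36. Over all 16917 tested genes, 8172 had positive values and the median was -0.03. Both NK mice lay below every Ctrl mouse for 2 of them, Grk2 and Gna11, and above for none, beside the 6.86% and 7.94% of all genes given above. Grk2, the kinase that desensitizes such receptors, had 48.4 and 84.9 CPM in NK1 and NK2, against 99.9, 139 and 208 CPM in KO1, KO2 and KO3. Its log2 fold change was -1.16 ± 0.47, at an unadjusted p of 0.039. The inhibitory G protein subunits gave -0.54 ± 0.41 for Gnai2 and 0.78 ± 0.50 for Gnai3, and Mtus1, which encodes a partner of the type 2 receptor (ATIP), gave -0.51 ± 0.47. The angiotensin 1-7 receptor Mas1 had 0 counts in NK lesions and 11 counts in 4 Ctrl lesions, and Mrgprd had none in either group.

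On the kinin and nitric oxide side, all 5 tested genes had negative values (median -0.585) and none separated the groups. Over all 16917 tested genes, 8745 had negative values, the median was -0.03, and 7.94% lay above and 6.86% below. Nos3, the endothelial nitric oxide synthase, gave -0.39 ± 0.85, the bradykinin receptor Bdkrb1 -0.89 ± 1.01, plasma kallikrein Klkb1 -0.55 ± 1.79 and the kininogen Kng2 -1.98 ± 1.46. The bradykinin type 2 receptor Bdkrb2, whose ligand Ace degrades, had 2 counts in NK lesions and 8 in Ctrl lesions.

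Genes known to respond to angiotensin II through the type 1 receptor moved in both directions. Of 15 tested, 8 had positive values, beside 8172 of all 16917 genes, and the median was 0.12. Both NK mice lay above every Ctrl mouse for 2 (Fn1 and Ccn2) and below for 1 (Edn1), near the 7.94% and 6.86% of all genes. Fn1, which encodes the matrix protein fibronectin, had 1459 and 1052 CPM in NK1 and NK2, against 787, 524 and 536 CPM in KO1, KO2 and KO3. Its log2 fold change was 1.03 ± 0.40 at an unadjusted p of 0.034. Fibroblasts are a known source of it, their scores by lesion are those given beside Agtr2, and their part in this value was not tested. The other abundant members gave 0.29 ± 0.68 for osteopontin (Spp1), 0.27 ± 0.37 for the calcineurin regulator Rcan1 and 0.65 ± 0.41 for the adhesion molecule Vcam1.

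**Figure D5:**
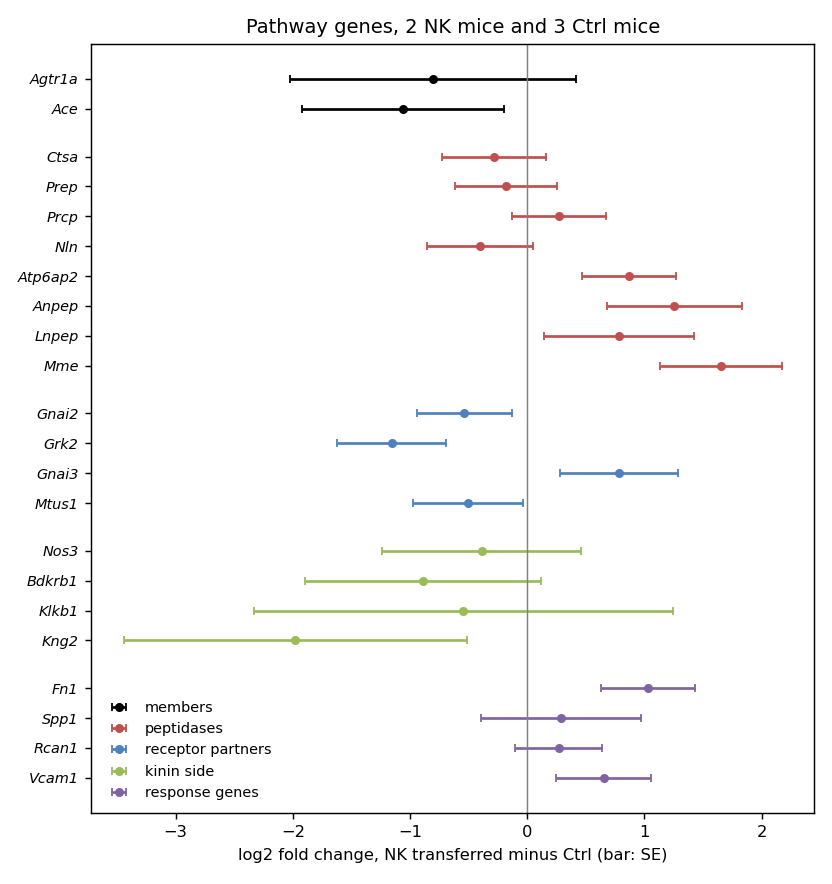
Log2 fold change, NK minus Ctrl, of Agtr1a, Ace and the named genes of the 4 pathway lists (points) with its standard error (bars), from the edgeR fit over 2 NK and 3 Ctrl mice; positive values are higher in NK mice. Agtr2, Agt, Cma1 and Cpa3 are not drawn because a group at or near 0 counts gives no stable value. Peptidases chosen after their values were seen (Atp6ap2 to Mme) lie right of 0, Grk2 (-1.16) lies left, and none of the genes drawn passed the test.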

How the data were processed

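RNA sequencing was done on 18 laser-captured lesions, with 2 ng of total RNA as input to a single-cell library kit, per the labels' protocols. The submitters' processing notes name STAR, RSEM 1.2.28, DESeq2 and bcl2fastq 2.17, with the mm10 build. The authors deposited expected counts per gene (RSEM estimates, unscaled), which were rounded here. A second deposited table on a log2 scale, normalized by the authors by an unnamed method, served as an alternative only. The strand setting of the counting was not given in the sources used here.

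Of 49585 identifiers, 49326 matched a symbol. Columns were assigned by title, and 0 further sample columns existed. Lesions of a mouse are not independent, so counts were summed per mouse. Lesions of each mouse differed by more than sampling noise (lowest chi-square per degree of freedom 23.8). Groups were compared with edgeR 4.0.16 in R 4.3.3 (quasi-likelihood, robust, TMM), after filterByExpr (minimum count 10, total 15) kept 16917 genes, with Benjamini-Hochberg adjustment over them at 0.05; the SE is the fold change divided by the square root of F. The common dispersion gave a coefficient of variation of 64.9%. The smallest one-sided p of an exact permutation test is 0.1 for 2 mice against 3. The fit was tested on simulated data. The alternatives used DESeq2 1.42.0 and limma 3.58.1. Where a group had 0 counts, the fold used a floor of 3 counts over the group; floors cover counting error only.

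Named genes were the 4 members, of each pathway list the 4 with the highest mean CPM, of each marker list the 2 highest, and for each member the 5 with the highest r over lesions; any other gene is marked in the text as picked later. The members and lists were chosen with earlier results of these data known. Gene coordinates are 1-based, from GENCODE M21 on GRCm38; promoters are from RefSeq (GRCm38.p6), with entries for 3 of the 4 members. A gene of the lists is not reported here, though the list totals count it.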

Additional observations from a re-analysis of the deposited data

Results flagged for a closer look

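Within the 7 NK lesions, 25 genes of the pathway were examined for a lesion that stands apart, meaning a gap to the nearest lesion above Dixon's 95% critical share of the whole range. The measure is set to flag about 5% of groups of normally distributed values, and 4 of the 25 genes had such a lesion. Of these, Cma1, Cpa3 and Mme were put among the 25 after their values were seen. The 4 can therefore not be set against that 5%. In NK1-2, Cma1 was at 64.95 CPM, next to 20.66 CPM in NK1-1, and Cpa3 was at 43.43 CPM, next to 3.63 CPM. In NK1-3, Mtus1 was at 467.3 CPM, next to 57.97 CPM. In NK1-1, Mme was at 47.0 CPM, next to 16.9 CPM. All 4 values are from lesions of mouse NK1, the mouse with the highest mt-Rnr2 shares of the NK group (47.6% to 65.3%) and with the shallowest lesion. NK1-1 was also the lesion with the highest adipocyte (1709 CPM) and cardiac (255 CPM) marker sums, and NK1-3 the one with the highest airway (25325 CPM) and epithelial (932 CPM) marker sums. Their part in these values was not tested. Agtr2, Agtr1a and Ace had no lesion apart by this measure among the NK lesions, and Agt had no count there.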

How the results depend on the processing

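Agtr1a and Ace passed no all-gene test under any alternative that gave them a value; with the filter of 10 counts in 9 lesions Agtr1a was not tested, and Agt was tested only without a filter (adjusted p = 0.966 in edgeR). The number of genes called over the whole table was 0 in edgeR, 39 in DESeq2, 224 with no filter on low counts, 7 with the mouse number as a replicate block, and 0 to 4 when a mouse or lesion was left out (4 without NK2). Pathway members called were 1 in DESeq2 (Cpa3), 2 without a filter (Cma1 and Cpa3) and 1 with the replicate block (Cma1). Whether mouse numbers pair the mice cannot be read from these data. Deviations from the group means correlated with r = 0.05 for NK1 with KO1 and 0.288 for NK2 with KO2. Crossed, they gave -0.288 and -0.05, which had to be the same values with the sign turned. That is because the deviations of 2 NK mice mirror each other. The block therefore rests on a shared number only. The Agtr2 bound ranged from 24.588 to 79.757 when a mouse or lesion was left out. The median Agtr2 level over NK lesions was 2.91 CPM with mt-Rnr2 left out of the total and no TMM scaling, against 1.74 CPM with both.

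Over all alternatives, 692 log2 fold changes of named genes kept their sign and 30 turned. The cause of the turns was not tested. Without lesions over 40% mt-Rnr2, Ace gave 0.25, Ctsa 0.22 and Prep 0.037. Without NK1-1 and NK1-3, Ctsa gave 0.18, Prep 0.19 and Gnai2 0.10. Both of these alternatives, and the Ace share and correlation without NK1-3 or without a mouse, were chosen after seeing the data. With the replicate block, Ctsa gave 0.11, Klkb1 1.65 and Spp1 -0.25. With the mouse as a random effect, Nos3 gave 0.21, Klkb1 0.067 and Kng2 0.0021. The authors' normalized table gave 0.023 for Nos3. Leaving out 1 mouse or lesion gave ranges of -0.71 to 0.15 for Ctsa, -0.77 to 0.23 for Prep, -0.064 to 0.49 for Prcp, -1.06 to 0.042 for Nln, -1.29 to 0.25 for Mtus1, -1.48 to 0.20 for Nos3, -2.36 to 0.28 for Klkb1, -0.29 to 0.69 for Spp1, -0.031 to 0.52 for Rcan1 and -0.0087 to 1.12 for Vcam1. Where a group is left with 1 mouse, it is assumed to vary like the other group. At the depth of the Ctrl lesions, a count of 0 in a single lesion leaves room for Agtr2 up to 0.220 to 1.37 CPM.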
